A study of Mus musculus with 12 samples.

Results

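Sphingosine-1-phosphate genes were followed in granulosa cells of the mouse ovary, which line the follicle, feed the oocyte and make oestrogen. The members were 8 genes: the kinases Sphk1 and Sphk2, the lyase Sgpl1, the phosphatases Sgpp1 and Sgpp2, and the receptors S1pr1, S1pr2 and S1pr3. Every probe set that the array annotation assigns to one of these genes alone was taken, which gave 16 of the 45101 probe sets of the array and 8 of the 18193 genes that it reads singly. They were chosen by the measured response of Sphk1 to human chorionic gonadotropin (hCG), large in wild type and small without Inha. The hCG responses of the members and the Sphk1 values after hCG are therefore given as a description, with no test.

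Single-colour Affymetrix arrays were run on 12 samples of total RNA, with 3 samples in each of 4 groups. The groups were Inha-/- mice after PMSG and hCG, wild-type mice after PMSG and hCG, Inha-/- mice after PMSG alone, and wild-type mice after PMSG alone. Inha encodes the alpha subunit of inhibin, a gonadal hormone that opposes activin and lowers the release of follicle-stimulating hormone. All mice had the mixed background C57BL/6J;129S5/SvEvBrd and were 21 days old. Pregnant mare serum gonadotropin (PMSG), a stand-in for follicle-stimulating hormone, was given to all at 5 IU for 44 to 46 h. In the hCG groups this was followed by 5 IU of hCG, which acts like luteinizing hormone, for 6 h. Cells were taken by puncturing antral follicles, and the labels describe no sorting. The labels call the samples independent, and do not say how many animals a sample holds or how the Inha allele was made.

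Values are log2 expression values, each probe set set to a median of 0 across the 12 arrays. A value of 0 is thus the median of the probe set's own values and no level. For a probe set that is high in only 1 group, it lies near the bottom of the range. Levels cannot be compared between genes or checked against background. The number of arrays limits the precision. After hCG, Inha had -7.40 to -7.35 on the knockout arrays, against 5.40 to 5.52 on the wild-type arrays, and after PMSG -7.38 to -5.40 against 5.62 to 5.87. The array descriptions hold a number that is called the serial number here, and the labels do not explain it. A split at 9000, chosen here, gave 7 early and 5 late ones. Early and late stand for low and high numbers, not for a known order in time. Late numbers belong to 2 arrays of each genotype after hCG (replicates 2 and 3) and to 1 knockout array after PMSG (replicate 3). The array names also hold a number, whose meaning the labels do not give. Among the PMSG arrays, replicate 1 of both genotypes shares this number, and so does replicate 2. Among the hCG arrays, wild-type replicates 2 and 3 share it. The labelled cell type could not be checked as a level. Of 9 measured granulosa markers, 7 fell with hCG in wild type in the limma fit (adjusted p under 0.05), against 7.14% of all genes. In the knockout 0 fell, where 1.44% of all genes were called in either direction, so 0 is near that share. After hCG 4 of the markers were higher in the knockout than in wild type, against 7.79% of all genes.

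Sphingosine-1-phosphate is a signalling lipid. Ceramidases release sphingosine from ceramide, and sphingosine kinases phosphorylate it to sphingosine-1-phosphate. The phosphatases Sgpp1 and Sgpp2 turn it back to sphingosine, while the lyase Sgpl1 breaks it down irreversibly. Outside the cell it binds G protein-coupled receptors that act on adhesion, cytoskeleton, vascular permeability and survival. In the ovary it is known for protecting follicle cells and oocytes from apoptosis, and the ovulatory surge reorganises follicle vessels and matrix.

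With an SD of 2.71 over the 12 arrays, against 1.74 for S1pr3 as the next, Sphk1 varied most of the members. This kinase is induced by many growth and stress signals. On its probe set 1451596_a_at the 3 arrays of the knockout after hCG had -0.035, 1.79 and -0.13, against 6.26, 5.30 and 6.43 in wild type after hCG. After PMSG alone the values were -0.065, -0.13 and 0.091 in the knockout, against 0.035, -0.11 and -0.10 in wild type. Every wild-type array after hCG thus lay far above every other array, and the arrays of the other 3 groups were near 0 except replicate 2 of the knockout after hCG.

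The Sphk1 response to hCG, hCG minus PMSG, was 0.58 ± 0.47 (SE of the fit, 3 arrays in each group) on the log2 scale in the knockout, against 6.06 ± 0.47 in wild type. The difference of the responses, knockout minus wild type, was -5.48 ± 0.67. Here and below, the SE rests on 1 variance for each probe set, shared by all 4 groups. It does not measure the spread of the compared groups alone. Without replicate 2 of the knockout after hCG the knockout response was -0.049 and the difference -6.11. A further quantile normalization of the arrays gave a response of 0.51 in the knockout, against 4.53 in wild type. Within the early serial numbers the response was 0.064 in the knockout, from 1 array against 2, and 6.32 in wild type, from 1 array against 3. The late arrays gave a knockout response of 0.74, from 2 arrays against 1, and hold no wild-type array after PMSG alone.

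The other Sphk1 probe set, 1420566_at, had the same order with a smaller range. Its values were 0.022, -0.038 and -0.028 in the knockout after hCG, against 1.49, 0.43 and 1.15 in wild type after hCG. On this probe set replicate 2 of the knockout did not stand apart. The hCG response was -0.023 ± 0.21 in the knockout, against 1.04 ± 0.21 in wild type.

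A genotype difference of Sphk1 was not detectable before hCG. The log2 difference after PMSG, knockout minus wild type, was 0.025 ± 0.47 (limma, adjusted p = 0.98) on 1451596_a_at and 0.028 ± 0.21 (adjusted p = 0.949) on 1420566_at. The sign on the first probe set turned with the scaling, at -0.0095 when each array was centred on its median.

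Other genes give the hCG response of the same arrays. Over all genes 262 were called for hCG in the knockout (1.44%) and 2452 in wild type (13.5%). In a panel of 6 measured genes known to move with the ovulatory signal, the progesterone receptor gene Pgr had an hCG response of 7.37 ± 0.13 in the knockout and 7.92 ± 0.13 in wild type (adjusted p = 1.47e-08 and 7.55e-09). The prostaglandin synthase gene Ptgs2 had 10.8 ± 0.26 in the knockout and 8.06 ± 0.26 in wild type (adjusted p = 9.44e-08 and 3.49e-07). Ereg, Tnfaip6 and Star also rose in both genotypes, and the cyclin gene Ccnd2 was not called in either. Replicate 2 of the knockout after hCG, the array with the Sphk1 value of 1.79, had 3.62 for Pgr, between the 3.40 and 3.80 of the other knockout arrays, and -7.35 for Inha. On the means of most cell marker lists, given below, it was the highest of the knockout arrays after hCG.

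**Figure D1:**
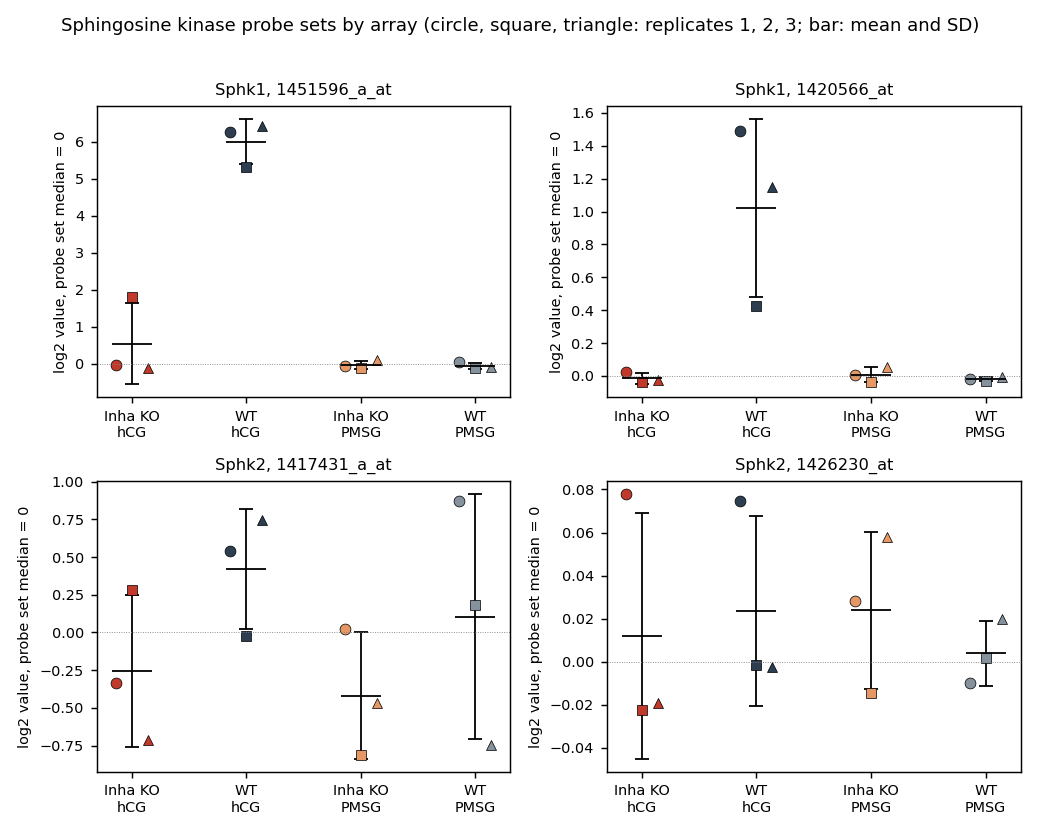
Log2 value (vertical axis, median of the probe set at 0) of the Sphk1 and Sphk2 probe sets on each array of the 4 groups, with mean and SD as bars and a different vertical scale in each panel. For Sphk1 the wild-type arrays after hCG lie at 5.30 to 6.43 on 1451596_a_at and the knockout arrays after hCG at -0.13 to 1.79.

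The RefSeq promoter table (GRCm38.p6) holds 5 annotated starts for Sphk1, and 7 of the 8 members have at least 1 window. The 250 bases before 3 of the Sphk1 starts are shown because the response of this gene chose the members, and the 2 windows left out overlap them. A search was made for 8 motifs on both strands: the cAMP response element (TGACGTCA) and its core (TGACG, which the full element contains), AP-1 (TGANTCA), the NR5A site (CAAGGNCA), the RUNX site (TGTGGT), the GC box (GGGCGG), an E-box (CACGTG) and the TATA box (TATAAA). They were chosen as sites of factors known in granulosa cells, with the sequences already in view. Capitals mark the matches, and sequences run 5′ to 3′ up to the base before the annotated start.
Sphk1, chr11:116530850-116531099, plus strand: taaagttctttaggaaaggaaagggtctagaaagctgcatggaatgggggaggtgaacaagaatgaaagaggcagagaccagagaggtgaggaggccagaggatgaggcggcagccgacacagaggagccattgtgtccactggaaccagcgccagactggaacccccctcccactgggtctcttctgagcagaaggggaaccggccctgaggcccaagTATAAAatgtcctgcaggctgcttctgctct
Sphk1, chr11:116531587-116531836, plus strand: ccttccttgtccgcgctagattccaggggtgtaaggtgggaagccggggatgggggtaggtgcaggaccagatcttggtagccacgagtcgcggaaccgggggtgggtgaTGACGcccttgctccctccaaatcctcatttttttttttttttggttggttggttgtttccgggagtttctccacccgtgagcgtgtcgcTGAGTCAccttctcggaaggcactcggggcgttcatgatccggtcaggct
Sphk1, chr11:116532194-116532443, plus strand: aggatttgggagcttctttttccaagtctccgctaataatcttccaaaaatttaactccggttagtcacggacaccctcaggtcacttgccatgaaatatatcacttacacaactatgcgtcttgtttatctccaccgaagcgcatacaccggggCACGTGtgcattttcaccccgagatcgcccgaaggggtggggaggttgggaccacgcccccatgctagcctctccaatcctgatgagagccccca
The first window holds a TATA box that begins 31 bases before the start. The second holds a cAMP response element core at 140 bases and an AP-1 match at 50 bases before the start, and the last an E-box at 95 bases. A window not shown, which overlaps the second and ends further downstream, has another core match 37 bases before its start. Of 32851 windows of this length, 12.4% hold the TATA box, 17.8% the cAMP element core, 6.75% the AP-1 motif and 6.02% the E-box. A match describes letters and is not a site at which binding was measured.

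Sphk2, the second sphingosine kinase, is known mainly from the nucleus and mitochondria. On 1417431_a_at it had -0.33, 0.28 and -0.71 in the knockout after hCG, against 0.54, -0.022 and 0.75 in wild type after hCG. After PMSG it had 0.022, -0.81 and -0.47 in the knockout, against 0.87, 0.18 and -0.74 in wild type. The groups overlapped in both comparisons, and the wild-type arrays after PMSG alone were widely spread. The genotype difference was -0.68 ± 0.42 (SE) after hCG (limma, adjusted p = 0.448) and -0.52 ± 0.42 after PMSG (adjusted p = 0.68). Within the pairs of PMSG arrays that share a name number, replicates 1 and 2, it was -0.85 and -0.99. The hCG response was 0.16 ± 0.42 in the knockout, against 0.32 ± 0.42 in wild type. The other Sphk2 probe set, 1426230_at, hardly varied at all, with an SD of 0.036 over the 12 arrays, and its values carry little information.

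Among the genes that remove sphingosine-1-phosphate, the phosphatase gene Sgpp1 was higher in the knockout after hCG and was the 1 member called of 7 tested there, Sphk1 being left out. Over all 18193 genes 13.3% were called in this comparison, and 7.79% were called as higher, so 1 of 7 is near the background. After PMSG 0 of the 8 members were called by limma, against 3.34% of all genes. An unadjusted p under 0.05 was reached by 2 of the 8, against 15.4% of all genes. Counted by probe set, 4 of 14 were called after hCG, against 12.1% of all probe sets, and 0 of 16 after PMSG, against 3.04%. The 4 belong to Sgpp1 and Sgpl1.

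Sgpp1 encodes a phosphatase of the endoplasmic reticulum that returns sphingosine-1-phosphate to sphingosine for ceramide synthesis. On 1420821_at it had 1.40, 0.61 and 0.55 in the knockout after hCG, against -0.00014, -0.45 and -0.51 in wild type after hCG. All knockout arrays lay above all wild-type arrays, replicate 1 of each genotype being the highest. Before hCG the values were 0.18, 0.00014 and 0.22 in the knockout, against -0.24, -0.52 and -0.39 in wild type, again without overlap.
The genotype difference of Sgpp1 was 1.17 ± 0.22 (SE, 2.25-fold) after hCG (limma, adjusted p = 0.00871) and 0.52 ± 0.22 after PMSG (adjusted p = 0.314). After hCG the other probe sets gave like values, 1.12 ± 0.20 on 1420822_s_at (adjusted p = 0.00599) and 1.14 ± 0.22 on 1450015_x_at (adjusted p = 0.0095). The calls of all 3 probe sets held in 6 of 6 fits that leave out 1 array. After PMSG they gave 0.38 and -0.17, with adjusted p = 0.437 and 0.736, so that the sign there differed between probe sets. Within the pairs of PMSG arrays that share a name number the difference on 1420821_at was 0.43 and 0.52. The call after hCG was lost in a fit of the 6 arrays after hCG alone (adjusted p = 0.0631), and over all alternatives the adjusted p ran from 0.000349 to 0.0631.
Within the early serial numbers the Sgpp1 difference after hCG was 1.40, from 1 array of each genotype, and within the late ones 1.06, from 2 of each. The hCG response of Sgpp1, described without a test, was 0.72 ± 0.22 in the knockout, against 0.067 ± 0.22 in wild type on 1420821_at.

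The promoter window of Sgpp1 held 0 matches of the 8 motifs and is shown because this gene was the one called.
Sgpp1, chr12:75735730-75735979, minus strand: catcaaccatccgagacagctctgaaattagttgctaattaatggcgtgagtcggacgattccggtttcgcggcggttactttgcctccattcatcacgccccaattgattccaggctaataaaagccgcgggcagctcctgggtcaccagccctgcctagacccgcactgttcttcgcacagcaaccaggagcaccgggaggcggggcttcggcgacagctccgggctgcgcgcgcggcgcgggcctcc
Its lack of these letters says nothing about the factors named.

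Sgpp2 encodes the related phosphatase and has a single probe set, 1457867_at. It had 0.38, 0.067 and 1.12 in the knockout after hCG, against -0.87, -0.50 and -0.43 in wild type after hCG. These groups did not overlap, as for 26.4% of all probe sets. After PMSG the values were -0.067, 0.65 and 0.18 in the knockout, against 0.20, -0.56 and -0.78 in wild type, where replicate 1 of wild type lay among the knockout arrays. The pairs of PMSG arrays that share a name number differed in sign, at -0.27 and 1.20. The genotype difference was 1.12 ± 0.33 (SE) after hCG (limma, adjusted p = 0.0571) and 0.63 ± 0.33 after PMSG (adjusted p = 0.451), neither past the threshold. Within the early and late serial numbers the value after hCG was 1.25 and 1.06. It passed after hCG in 4 of 18 alternatives, where the adjusted p ran from 0.0277 to 0.496 over the 18.

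Sgpl1 encodes the lyase that ends the pathway. Its probe set 1415892_at had -0.27, 0.12 and 0.23 in the knockout after hCG, against 0.71, 0.37 and 0.94 in wild type after hCG. Before hCG it had -0.85, -0.54 and -0.55 in the knockout, against -0.12, 0.046 and -0.046 in wild type. The knockout arrays lay below the wild-type arrays in both comparisons.
The genotype difference on 1415892_at was -0.64 ± 0.17 (SE) after hCG (limma, adjusted p = 0.0368) and -0.61 ± 0.17 after PMSG (adjusted p = 0.101). The call after hCG held in 2 of 6 fits without 1 array, those without replicate 2 of wild type or replicate 3 of the knockout, and the adjusted p ran from 0.015 to 0.134. Within the early and late serial numbers the difference after hCG was -0.98 and -0.48. The hCG response was 0.68 ± 0.17 in the knockout, against 0.71 ± 0.17 in wild type, a difference of -0.034 ± 0.24.
The more variable Sgpl1 probe set, 1415893_at, represents the gene in the counts above and was not called. It had -0.74, -0.45 and 0.26 in the knockout after hCG, against 0.35, -0.25 and 0.46 in wild type, and the groups overlapped. After PMSG it had -0.52, -0.062 and -2.55 in the knockout, against 0.062, 0.57 and 0.63 in wild type. Its genotype differences were -0.50 ± 0.57 after hCG (adjusted p = 0.846) and -1.46 ± 0.57 after PMSG (adjusted p = 0.261). Replicate 3 of the knockout after PMSG stood far below the rest, and without it the difference after PMSG was -0.71. Within the pairs of PMSG arrays that share a name number it was -0.58 and -0.63 on this probe set, and -0.73 and -0.59 on 1415892_at. Its hCG response was 0.73 ± 0.57 in the knockout, against -0.23 ± 0.57 in wild type.

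**Figure D2:**
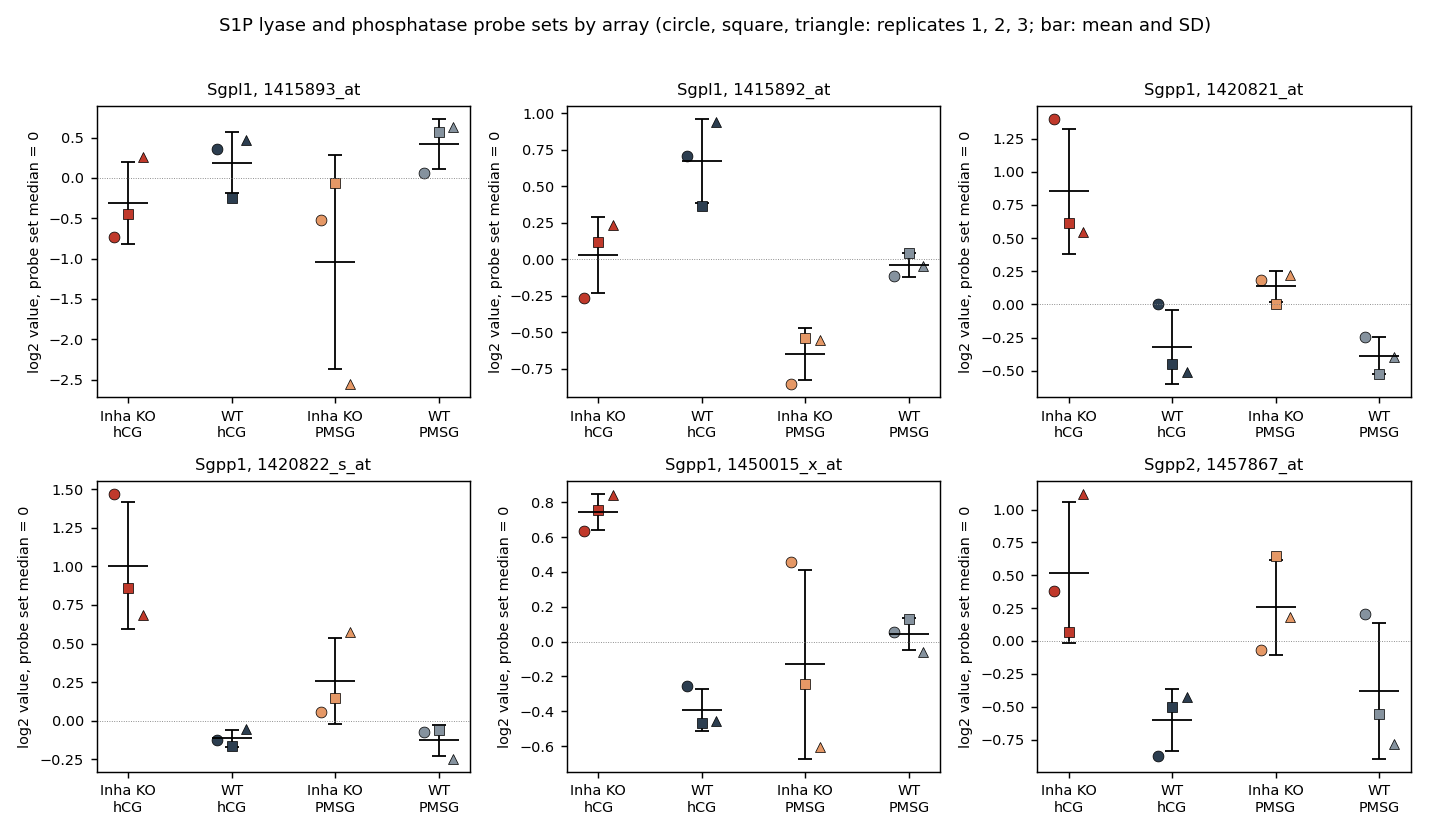
Log2 value (vertical axis, median of the probe set at 0) of the Sgpl1, Sgpp1 and Sgpp2 probe sets on each array of the 4 groups, with mean and SD as bars and a different vertical scale in each panel. On all Sgpp1 and Sgpp2 panels the knockout arrays after hCG lie above the wild-type arrays after hCG, and on Sgpl1 1415892_at they lie below.

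Markers of other cells moved with genotype beside these genes. After hCG, 5 of 8 oocyte markers and 6 of 9 measured theca and stroma markers were higher in the knockout in limma. Of all genes 7.79% were. Cyp17a1 of the theca and stroma list went the other way, uncalled. It had -1.38, -0.025 and -0.47 in the knockout after hCG, against 0.025, 1.48 and 0.68 in wild type. After PMSG Cyp17a1 had -1.79, -1.84 and -0.084 in the knockout, against 0.53, 2.56 and 2.01 in wild type. The mean centred value of the oocyte list on single arrays was 0.52 to 2.77 in the knockout and -1.85 to -1.33 in wild type. That of theca and stroma was 0.29 to 2.12 in the knockout and -1.42 to -0.55 in wild type. For leukocytes it was -0.12 to 1.19 and -0.095 to 0.53. These are values after hCG. Of 10 leukocyte markers 0 were called between genotypes there, against 13.3% of all genes. Replicate 2 of the knockout had the highest mean of the knockout hCG arrays in each of these lists. It also had the highest endothelial and granulosa means (0.35 and 0.14) and the lowest red blood cell mean (0.078, 2 genes measured). After PMSG, where 1.70% of all genes were higher, 2 of the oocyte and 4 of the theca and stroma markers were. Their part in the genotype differences was not tested. In these bulk samples fewer cells of a type and less RNA per cell cannot be told apart.

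S1pr3, the receptor that couples to several G proteins and is known from vessel tone, was the receptor with the widest range. On 1438658_a_at it had 0.0065, 1.57 and -0.050 in the knockout after hCG, against 0.77, 3.92 and 5.01 in wild type after hCG. All 6 arrays after PMSG alone lay between -0.043 and 0.035. The highest knockout array, replicate 2, lay above the lowest wild-type array, replicate 1, so the genotypes overlapped after hCG.
The genotype difference of S1pr3 was -2.72 ± 0.90 (SE) after hCG (limma, adjusted p = 0.0892) and 0.027 ± 0.90 after PMSG (adjusted p = 0.989). Without replicate 1 of wild type after hCG the genotype difference after hCG was -3.96 and passed (adjusted p = 0.00234), and it was -1.84 without replicate 3. It passed after hCG in 6 of 18 alternatives. The hCG response was 0.51 ± 0.90 in the knockout, against 3.27 ± 0.90 in wild type.
In wild type after hCG the low S1pr3 array has an early serial number and the high ones late serial numbers. The genotype difference after hCG was -0.76 within the early arrays, 1 of each genotype, and -3.70 within the late ones, 2 of each. The part of the serial number was not tested. The other S1pr3 probe sets did not move in this way: 1437173_at had 0.029, -0.024 and 0.30 in the knockout after hCG, against 0.051, -0.026 and 0.90 in wild type, and 1460661_at had an SD of 0.035 over the 12 arrays.

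S1pr1, which couples to inhibitory G proteins and is known for keeping endothelium tight, had 0.19, 0.37 and 1.40 in the knockout after hCG, against 0.011, 0.46 and 0.85 in wild type after hCG. All 6 arrays after PMSG lay between -0.29 and -0.011, below every array after hCG. The hCG response, given without a test, was 0.85 ± 0.30 in the knockout, against 0.56 ± 0.30 in wild type, a difference of 0.29 ± 0.43. The genotype difference was 0.21 ± 0.30 after hCG (limma, adjusted p = 0.956) and -0.072 ± 0.30 after PMSG (adjusted p = 0.903). Over all genes 1.30% rose with hCG in the knockout and 6.34% in wild type. Of 10 endothelial markers 0 rose in either genotype, which is near these shares. The mean of their centred values ran from -0.36 to 0.35 on the knockout arrays and from -0.22 to 0.65 on the wild-type arrays after hCG, and after PMSG from -0.18 to 0.079 on the knockout arrays and from -0.55 to 0.40 on the wild-type arrays.

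S1pr2, which couples to the G proteins that activate RhoA and opposes S1pr1 in vessels, varied within groups. On 1428176_at it had -0.63, 0.94 and 0.22 in the knockout after hCG, against 0.022, 0.13 and 0.57 in wild type after hCG. After PMSG it had -0.50, -0.022 and -0.18 in the knockout, against 0.44, -0.98 and -1.07 in wild type. The spread inside wild type after PMSG and inside the knockout after hCG was wider than any difference between groups.
The S1pr2 genotype difference was -0.067 ± 0.46 (SE) after hCG (limma, adjusted p = 1) and 0.30 ± 0.46 after PMSG (adjusted p = 0.754). On the probe set 1447880_x_at it was -0.16 ± 0.18 (adjusted p = 0.841) and 0.31 ± 0.18 (adjusted p = 0.517). The hCG response on 1447880_x_at was 0.22 ± 0.18 in the knockout, against 0.69 ± 0.18 in wild type.

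The S1pr3 and S1pr2 windows are shown to set a receptor gene with a large hCG response in wild type beside one with a full cAMP response element.
S1pr3, chr13:51408368-51408617, plus strand: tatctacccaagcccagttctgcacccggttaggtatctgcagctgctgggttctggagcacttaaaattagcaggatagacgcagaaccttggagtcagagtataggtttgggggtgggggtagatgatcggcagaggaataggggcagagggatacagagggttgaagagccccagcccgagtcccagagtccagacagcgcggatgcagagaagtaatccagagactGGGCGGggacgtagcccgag
S1pr2, chr9:20976794-20977043, minus strand: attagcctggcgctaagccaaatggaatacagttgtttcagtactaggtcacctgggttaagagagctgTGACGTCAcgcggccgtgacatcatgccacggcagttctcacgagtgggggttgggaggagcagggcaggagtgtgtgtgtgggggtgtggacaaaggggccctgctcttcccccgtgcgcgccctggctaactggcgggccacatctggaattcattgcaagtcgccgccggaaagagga
S1pr3 had a GC box match that begins 20 bases before the start, a motif found in 32.7% of all windows. S1pr2 had the full cAMP response element 181 bases before the start, found in 1.55% of all windows. The table gave no window for S1pr1.

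**Figure D3:**
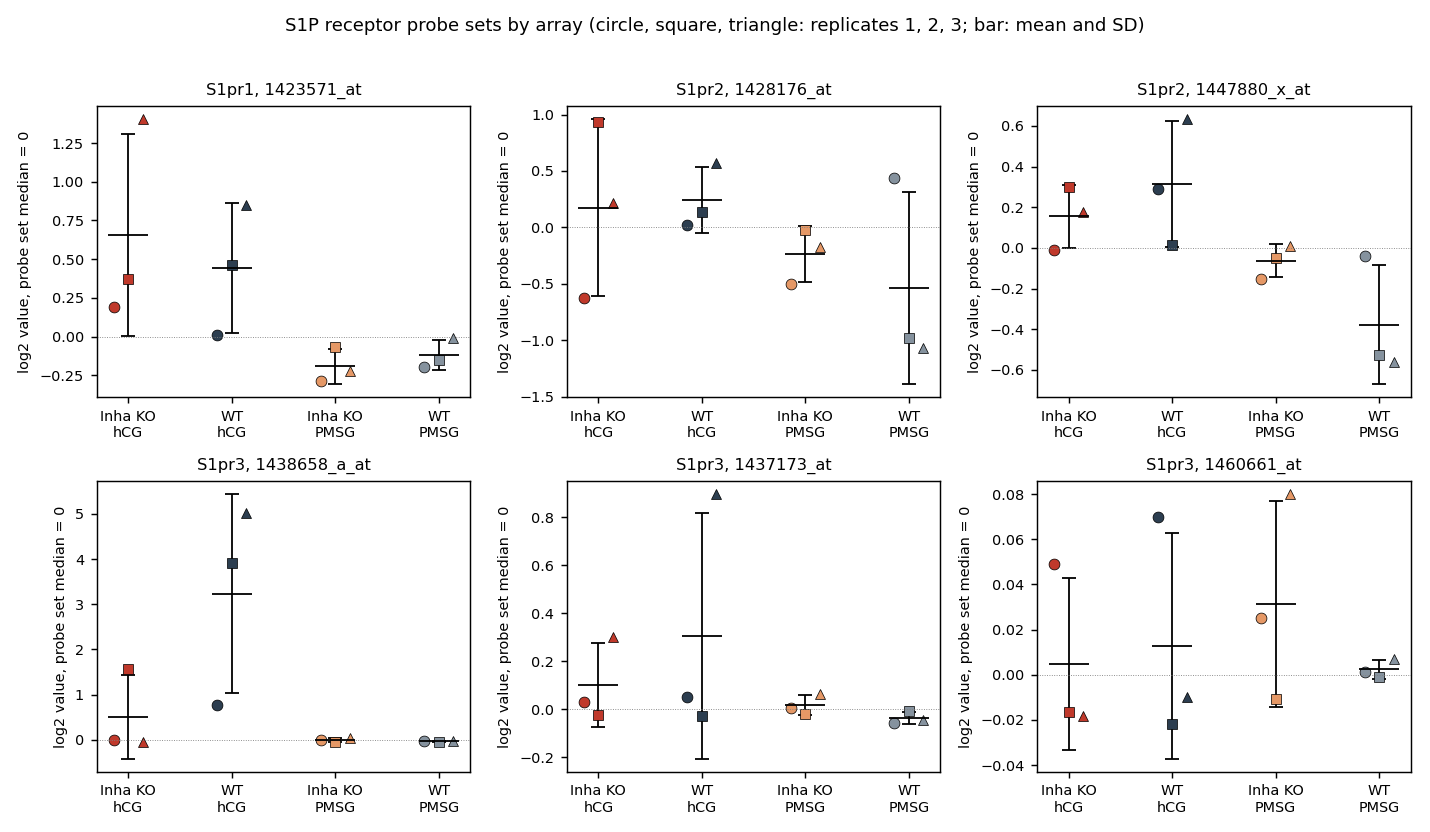
Log2 value (vertical axis, median of the probe set at 0) of the S1pr1, S1pr2 and S1pr3 probe sets on each array of the 4 groups, with mean and SD as bars and a different vertical scale in each panel. S1pr3 1438658_a_at reached 5.01 in wild type after hCG and 1.57 in the knockout after hCG, while the S1pr1 arrays after hCG lay above those after PMSG in both genotypes.

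Set side by side on the most variable probe set of each gene, the members' means after hCG were as follows. Those of Sphk1 and S1pr3 were lower in the knockout relative to wild type, 0.54 ± 1.08 (SD, n = 3) against 6.00 ± 0.61 and 0.51 ± 0.92 against 3.23 ± 2.20. Those of Sgpp1 and Sgpp2 were higher, 0.85 ± 0.47 against -0.32 ± 0.28 and 0.52 ± 0.54 against -0.60 ± 0.24. Of these 4 genes Sgpp1 was called, S1pr3 and Sgpp2 were not, and Sphk1 was not tested. Sphk2, Sgpl1, S1pr1 and S1pr2 had differences between -0.68 and 0.21 that were not called, although the other Sgpl1 probe set was called lower. Over the members' probe sets, 7 of 16, both of Sphk1 among them, did not overlap between genotypes after hCG and 4 of 16 after PMSG, where 26.4% and 17.8% of all probe sets did not. For the hCG response, 5 of 16 did not overlap in the knockout and 7 of 16 in wild type, where 10.6% and 28.5% of all probe sets did not, and nothing is read from these since that response chose the members. Each hCG response uses the arrays of 1 genotype comparison after hCG and of 1 after PMSG, so the comparisons are not independent.

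**Figure D4:**
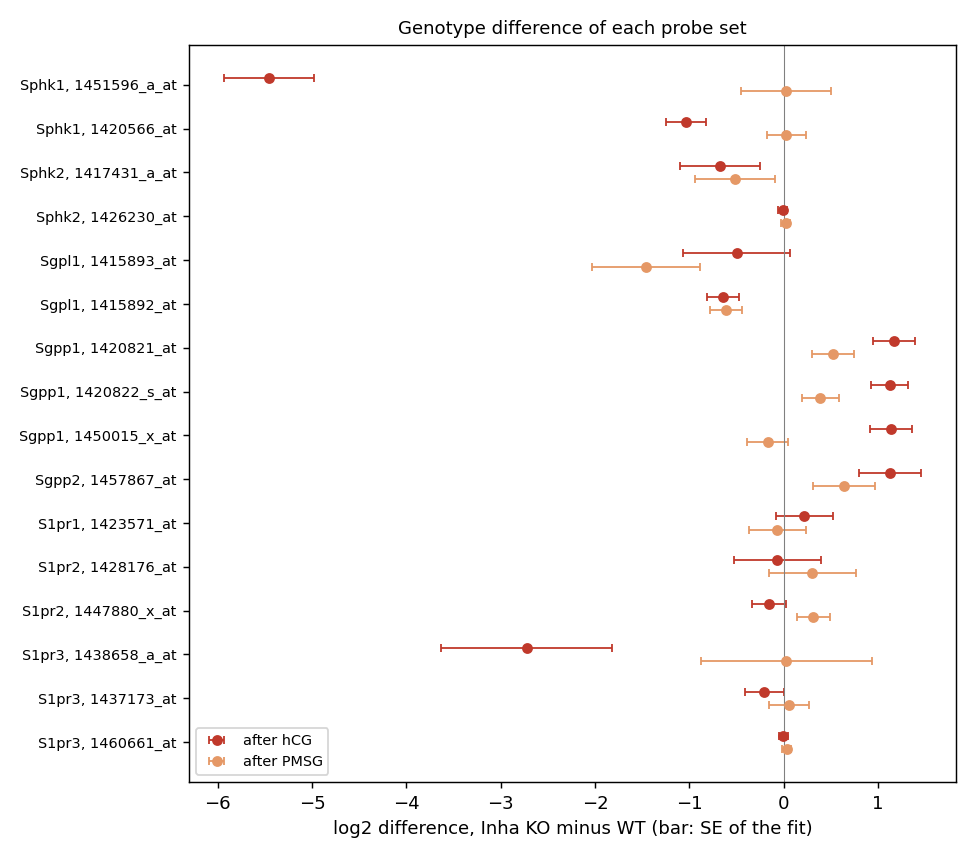
Log2 difference, Inha knockout minus wild type (horizontal axis, bar: SE), of the 16 probe sets after hCG and after PMSG. After hCG the Sphk1 probe sets lie at -5.46 and -1.04 and the 3 Sgpp1 probe sets at 1.12 to 1.17, and after PMSG the points run from -1.46 to 0.63.

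Enzymes around the pathway were tested with 63 measured genes of 5 lists, none of them a member. Over all these genes 13 of 63 were called between genotypes after hCG, 5 higher and 8 lower in the knockout. That is 20.6% of them, against 13.3% of all genes, with a median log2 difference of -0.031 against 0.00057. Of all genes 7.79% were higher and 5.47% lower. The split became 2 higher and 6 lower when each array was centred on its median, and likewise when the arrays were quantile-normalized again. After PMSG 2 of 63 were called, 1 in each direction, against 1.70% of all genes higher and 1.64% lower. For the hCG response 1 of 63 rose in the knockout, against 1.30% of all genes that rose and 1.44% called in either direction. In wild type 7 rose and 1 fell, against 6.34% and 7.14% of all genes, 13.5% in all.

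In the list of de novo sphingolipid synthesis, 14 of 17 genes were measured and after hCG 2 were higher and 2 lower in the knockout relative to wild type. Cers6, a ceramide synthase that makes ceramide with shorter acyl chains, had -0.0011, 0.083 and 0.19 in the knockout after hCG, against 1.56, 1.37 and 1.87 in wild type after hCG. Before hCG all 6 arrays lay between -0.52 and 0.0011. Cers6 was thus lower in the knockout relative to wild type after hCG, at a difference of -1.51 ± 0.13 (SE, limma, adjusted p = 0.00022), and rose with hCG in wild type by 1.97 ± 0.13 (adjusted p = 2.5e-05), while its hCG response in the knockout was 0.20 ± 0.13 (not called). The difference of its responses was -1.78 ± 0.18 (adjusted p = 0.00331), 1 of 197 genes called for this difference, which is 1.08% of all genes.
Cers5, a related ceramide synthase, was higher in the knockout both after hCG (2.38 ± 0.36, adjusted p = 0.00305) and after PMSG (1.61 ± 0.36, adjusted p = 0.0495). The call after PMSG was lost when any 1 array of those groups was left out. Its other probe set 1451209_at gave 0.94 after hCG (adjusted p = 0.000459) and 0.49 after PMSG (adjusted p = 0.0271). Kdsr, the reductase of the second step of synthesis, was higher in the knockout than in wild type after hCG and Sptlc2, a subunit of the first enzyme, lower, at genotype differences of 1.18 and -0.98 (adjusted p = 0.0214 and 0.0468). On these most variable probe sets the hCG responses were not called. They were 0.015 in the knockout and -0.56 in wild type for Kdsr, and 0.34 and 0.73 for Sptlc2. The Kdsr probe set 1440331_at was called for hCG in the knockout (0.67 ± 0.12, limma, adjusted p = 0.0256) and not in wild type (0.16). Its genotype difference after hCG was 0.80 (adjusted p = 0.00256). On 1428559_at the Kdsr genotype difference after hCG was 0.42 (adjusted p = 0.213), and its hCG responses were not called. The Kdsr call was lost without replicate 2 or 3 of the knockout after hCG and the Sptlc2 call without any 1 array after hCG.

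In the list of ceramide and sphingomyelin turnover, 17 of 18 genes were measured, and after hCG 1 was higher and 3 lower in the knockout relative to wild type. Sgms1, which makes sphingomyelin from ceramide in the Golgi, had -0.073, -0.031 and -0.031 in the knockout after hCG, against 1.78, 2.16 and 3.16 in wild type after hCG. After PMSG its knockout arrays had -0.025 to 0.039 and its wild-type arrays -0.012 to 0.38. After hCG it was lower in the knockout relative to wild type, at a difference of -2.41 ± 0.29 (SE, limma, adjusted p = 0.000894), and it rose with hCG by 2.25 ± 0.29 in wild type (adjusted p = 0.00131).
The hCG response of Sgms1 in the knockout was -0.052 ± 0.29, and the difference of the responses -2.30 ± 0.40 (adjusted p = 0.0373). This call was lost without any 1 array of the groups other than wild type after hCG. The other 3 Sgms1 probe sets had hCG responses of 0.83 to 1.23 in the knockout and 1.48 to 1.70 in wild type, so that the gap between the responses depended on the probe set. All 3 were lower in the knockout after hCG, at differences of -1.54 to -1.35, and their differences after PMSG were -1.24 to -0.67, with 1 of 3 called (1436499_at, adjusted p = 0.0308).
Samd8, a related enzyme of the endoplasmic reticulum, was lower in the knockout relative to wild type after hCG, at -1.44 (adjusted p = 0.0106), and rose with hCG in wild type by 1.40 (adjusted p = 0.013, and 0.0561 without replicate 3 of wild type after hCG). Asah2, the neutral ceramidase that yields sphingosine, was lower in the knockout relative to wild type after hCG, at -1.65 (adjusted p = 0.0353). Smpd1, the acid sphingomyelinase, was higher in the knockout than in wild type after hCG, at 0.74 (adjusted p = 0.0357), and fell with hCG in wild type by 1.27 (adjusted p = 0.00339). Before hCG the Smpd1 genotype difference was -0.60 (adjusted p = 0.158), and its hCG response in the knockout was 0.072 (not called). The genotype calls of Asah2 and Smpd1 were lost in 5 and 4 of the 6 fits that leave out 1 array. The other probe sets of Samd8, Asah2 and Smpd1 were not called between genotypes after hCG. Samd8 had -0.45 on 1453730_at and -0.81 on 1458408_at (limma, adjusted p = 0.454 and 0.267). Asah2 had -1.59 on 1425994_a_at (adjusted p = 0.0778). Smpd1 had 0.27 on 1447874_x_at (adjusted p = 0.541), with an hCG response of 0.052 in wild type there.

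In the list of export, carriers and breakdown, 0 of 10 genes were called between genotypes after either treatment on their most variable probe sets. For hCG 0 were called in the knockout and 2 in wild type. On the less variable probe set 1421840_at Abca1 was lower in the knockout after hCG, at -0.81 ± 0.20 (SE, limma, adjusted p = 0.0278). It rose there with hCG in wild type by 1.39 (adjusted p = 0.00253). In the knockout its hCG arrays lay above its PMSG arrays, uncalled (adjusted p = 0.0518). The Abca1 probe set 1421839_at was not called between genotypes after hCG (-0.84, adjusted p = 0.586). The lipid phosphatase genes Plpp3 and Plpp1, whose enzymes dephosphorylate sphingosine-1-phosphate at the cell surface, rose with hCG in wild type by 2.01 ± 0.41 (SE) and 1.20 ± 0.32 (limma, adjusted p = 0.013 and 0.0416). The Plpp3 call was lost without replicate 3 of wild type after hCG, and the Plpp1 call in 5 of 6 fits without 1 array. In the knockout the Plpp3 and Plpp1 responses were 1.72 ± 0.41 and 0.86 ± 0.32 (adjusted p = 0.113 and 0.417).
In the list of other receptors, G proteins and effectors, 0 of 16 were higher and 3 lower in the knockout relative to wild type after hCG: Gnai3 at -0.79, Arhgef12 at -0.96 and Rac1 at -0.58 (adjusted p = 0.0134, 0.0225 and 0.0423). Of these the Gnai3 call held in 5 of 6 fits without 1 array, that of Arhgef12 in 2 and that of Rac1 in 1. The other probe sets of Gnai3 (-0.082) and Rac1 (-0.30 and -0.040) were not called. Arhgef12 was called lower also on 1423902_s_at (-0.69) and 1446965_at (-0.88), not on 1453853_a_at (-0.54). Some less variable probe sets were called lower for Gnai1 (1454959_s_at, -1.34), Gna13 (1433749_at, -0.52), Rhoa (1437628_s_at, -0.67) and Rock1 (1450994_at, -0.56). Most further probe sets of these genes were not called. Arhgef12, a RhoA exchange factor downstream of the receptors, rose with hCG by 1.92 ± 0.22 (SE) in the knockout and 1.92 ± 0.22 in wild type (adjusted p = 0.00261 and 0.000822). Its genotype difference was -0.96 also after PMSG (adjusted p = 0.0561). After PMSG Arhgef11, its relative, was lower in the knockout relative to wild type, at -0.64 (adjusted p = 0.0313), a call lost in 5 of 6 fits without 1 array. The receptor genes S1pr4 and S1pr5 had an SD of 0.045 and 0.11 over the 12 arrays and no call.
In the list of the related lysophosphatidate genes, 2 of 6 were higher in the knockout than in wild type after hCG, Agk at 1.25 and Lpar6 at 1.19 (adjusted p = 0.0336 and 0.0365), each call held in 1 of 6 fits without 1 array. Their hCG responses were not called: -0.27 in the knockout and -1.05 in wild type for Agk, and 0.44 in the knockout and -0.69 in wild type for Lpar6. The receptor gene Lpar1 rose with hCG in wild type by 2.70 ± 0.47 (SE, adjusted p = 0.00623). Its response in the knockout was 1.08 ± 0.47 (adjusted p = 0.509), with all hCG arrays above all PMSG arrays, and the difference of the responses was not called (-1.62 ± 0.66, adjusted p = 0.409). On the Lpar1 probe set 1448606_at the response was 1.41 ± 0.40 in the knockout (adjusted p = 0.212) and 1.91 ± 0.40 in wild type (adjusted p = 0.0147).

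**Figure D5:**
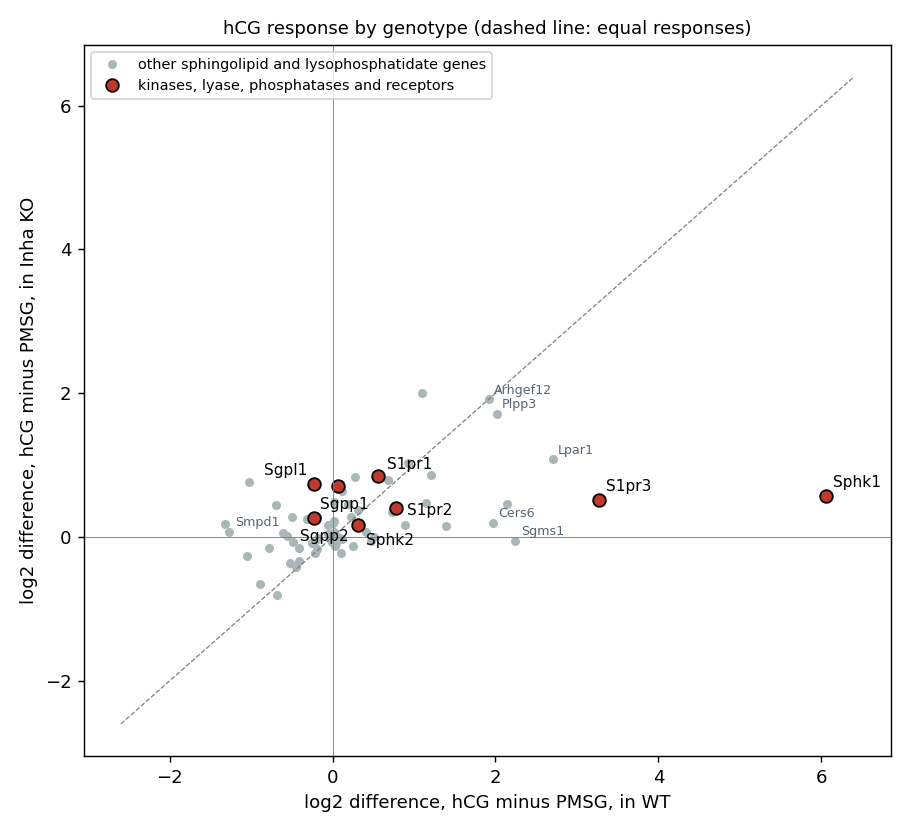
Log2 difference, hCG minus PMSG, in the Inha knockout (vertical axis) and in wild type (horizontal axis) for the 8 members and 63 other genes, 1 probe set for each gene. Sphk1 lies at 0.58 and 6.06 and S1pr3 at 0.51 and 3.27, below the dashed line of equal responses, and Arhgef12 lies on it.

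The genes most like Sphk1 were ranked by Pearson's r over the 12 arrays among 4709 genes whose group means spanned at least 1 log2 unit, clone names left out, as a description with no p. The 10 highest were Pitpnc1 (0.998), Kl (0.992), Npr1 (0.988), Zpr1 (0.988), Pla2g7 (0.987), Dmbt1 (0.985), Adamts3 (0.983), Rras2 (0.983), Entpd7 (0.982) and Itpk1 (0.981). For each of the 10 all wild-type arrays after hCG lay above all other arrays, and r rests on that step. On the knockout arrays after hCG these genes had 0.31 to 1.56 on replicate 2, against -0.22 to 0.79 on the others. Replicate 2 is also the highest of these arrays for Sphk1, and the ranking used that value. Among the members S1pr3 had the highest r with Sphk1 of the other genes, 0.825, which ranked 529 of 4709, and Sgpl1 1415892_at had 0.811.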

How the data were processed

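RNA of 12 samples was hybridised to single-colour Affymetrix arrays with 45101 probe sets. The authors' deposited values are log2 expression values made with GCRMA, per the submitters' processing notes, with no version given in the sources used. The labels do not state the centring: every probe set has a median of 0 over the 12 arrays (largest deviation 5e-07). The log2 scale was read from the widest probe set, 13.3 units, above the 11.1 that natural logs of a 16-bit scanner allow. The table held 0 columns of other samples. Scanner files were not used here.

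Samples were grouped by their titles. Of the probe sets, 64 are controls, 34945 name 1 gene, 932 several and 9160 none. All 34945 were fitted with limma 3.58.1 in R 4.3.3, without a filter, in a group-means model with moderated variances. For each comparison, Benjamini-Hochberg adjustment ran over all of them, with a threshold of 0.05. The most variable probe set (highest SD across arrays) stands for its gene. This choice favours responding probe sets. The others are given for all members, but only for some of the list genes. A variance filter (SD at least 0.151) was an alternative, which 14 of the 16 member probe sets passed.

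Inha, all members, up to 4 genes of each list by adjusted p and further called ones, the hCG panel and the 10 genes most like Sphk1 were named by rule. The lists, 63 of 70 genes measured, and the members were chosen with earlier results of these data known. Alternatives were filters, probe set rules, renormalization, array weights, robust moderation, blocks, serial number and leaving out arrays. The fit was tested on simulated data. Promoters are from RefSeq, and figures were drawn with matplotlib 3.10.9.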

Additional observations from a re-analysis of the deposited data

Results flagged for a closer look

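Sgpp1 on the probe set 1450015_x_at was singled out because hCG moved the genotypes in opposite directions on every array: the response was 0.87 in the knockout, with all hCG arrays above all PMSG arrays, and -0.44 in wild type, with all below. The difference, 1.31 ± 0.31 (SE), was not tested, and the other Sgpp1 probe sets had wild-type responses of 0.067 and 0.012. Of all probe sets, 10.6% did not overlap for hCG in the knockout and 28.5% in wild type. The share that moved in opposite directions was not counted. Cers6 was singled out by the test of the difference of the hCG responses (limma, -1.78, adjusted p = 0.00331), and Sgms1 likewise (-2.30, adjusted p = 0.0373). Over the alternatives the adjusted p ran from 0.000255 to 0.0669 for Cers6 and from 0.000731 to 0.127 for Sgms1.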

How the results depend on the processing

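The number of members called after PMSG, 0, became 2 with array weights (Sgpl1 and Sgpp1). Array weights called 26.7% of all genes after PMSG, against 3.34% in the main fit, so 2 of 8 is near the share with weights. After hCG, 1 of 7 members was called, 3 with either SD filter (all probe sets, or 1 probe set per gene) and with array weights, 2 with the mean of a gene's probe sets, with early or late serial number as a covariate and on the early arrays alone, and 0 with only the groups compared. The Sphk1 response in wild type was 3.55 with the mean of its probe sets and 4.53 with quantile normalization, and the difference of responses was -3.27, -4.02 and, on the early arrays alone, -6.26. For the other sphingolipid genes the 2 calls after PMSG became 7 with mean probe sets, 1 with median centring and with robust moderation, 20 with array weights, 0 with only the groups compared and on the early arrays, 6 with the array-name number as a random block (consensus correlation 0.573) and 4 with the serial covariate. The 13 calls after hCG became 8 with either renormalization, 21 with array weights, 6 with only the groups compared and with the array-name block, and 4 on the early arrays. The 8 calls for hCG in wild type became 27 with array weights, 13 with only the groups compared and 5 on the early arrays, and the 1 in the knockout became 2 with either SD filter, 20 with array weights and 0 with only the groups compared. Of all genes, array weights called 28.3% after hCG, 32.8% for hCG in wild type and 26.4% in the knockout. After hCG the SD filters called 22.5% and 21.4% of the genes kept, mean probe sets 15.4% and the serial covariate 15.3%. Only the groups compared gave 10.8% there, the array-name block 7.28%, quantile normalization 10.1% and median centring 11.8%. After PMSG mean probe sets gave 4.9% and the array-name block 7.86%. The causes were not tested.

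Leaving out 1 array gave 0 to 0 and 1 to 2 member calls after PMSG and hCG, 0 to 3, 5 to 13, 1 to 1 and 5 to 10 calls of the other genes after PMSG, after hCG, for hCG in the knockout and for hCG in wild type. It gave Sphk1 responses of -0.049 to 0.91 in the knockout and 5.84 to 6.41 in wild type, and differences of -6.11 to -5.14. The second call after hCG was that of S1pr3, without replicate 1 of wild type after hCG. The sign of uncalled values turned: Sphk1 after PMSG was -0.0095 with median centring, -0.014 with the array-name block, -0.048 with the serial covariate, -0.038 on the early arrays and -0.038 to 0.073 when 1 array was left out, negative without wild-type replicate 2 (-0.0024) and knockout replicate 3 (-0.038). S1pr3 after PMSG was -0.0073 with median centring and -0.47 with the serial covariate. After hCG S1pr1 was -0.001 without wild-type replicate 1 and -0.16 without knockout replicate 3 (range -0.16 to 0.45), and S1pr2 was 0.016 with array weights, 0.098 without wild-type replicate 3 and 0.33 without knockout replicate 1 (range -0.45 to 0.33). Of 748 further values, 586 kept their direction and side of the threshold, 137 lost the call, 12 gained one and 13 turned sign.

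With the replicate number of the titles as a block the member calls stayed at 0 and 1 and those of the other genes for hCG in the knockout became 2. The titles' numbers are not stated to pair the samples, although same-numbered arrays after PMSG share an array-name number for replicates 1 and 2. Their deviations correlated at 0.18, 0.30 and 0.07 between genotypes after PMSG and at 0.18, -0.062 and 0.0057 after hCG, and 6 of 6 and 2 of 6 samples correlated best with their own number. Between hCG and PMSG it was 2 of 6 in the knockout and 6 of 6 in wild type. Signal over background was not analysed here, so whether a probe set read its transcript cannot be told.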
